A study of Homo sapiens with 12 samples.

Results

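The SOCS family comprises 8 genes, SOCS1 to SOCS7 and CISH, and all 8 were found among the 58302 gene identifiers of the count table through the symbols of GENCODE v44. SOCS2 was chosen by its measured counts in these libraries, as a gene whose BMP response was larger after MIB1 loss, and the other 7 genes were taken as its paralogs. The values of SOCS2 are therefore given as a description with no test, and tests are given for the paralogs. Of the 8 genes, 7 passed the filter on low counts, and SOCS1 did not.

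RNA was sequenced from MIB1-iKO cells, which are NCIH838 cells, an established lung cancer cell line. MIB1-iKO cells carry a construct with a guide RNA to MIB1 and with Cas9, whose expression doxycycline (Dox) induces. The study isolated MIB1-iKO lines as single-cell clones, which limits them as a model, and the sources used here do not say which clone gave these libraries. LDN, which blocks BMP type I receptors, was given to all cells at 50 nmol/L for 3 days, without Dox (MIB1 WT) or with 0.5 μg/mL Dox (MIB1 KO), and all then received 10 ng/mL BMP4 for 24 hours. LDN at 50 nmol/L was kept with the BMP4 in the BMP-off groups and was replaced by DMSO in the BMP-on groups. The 4 groups were MIB1 WT BMP-off, MIB1 WT BMP-on, MIB1 KO BMP-off and MIB1 KO BMP-on, with 3 libraries each. Every MIB1 KO library and no MIB1 WT library had received Dox, so effects of Dox or Cas9 and of MIB1 loss cannot be told apart. Nothing in the labels says that replicates were separate cultures, so p-values measure the spread between these libraries, which may be technical.

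SOCS proteins are feedback inhibitors of cytokine signaling. A cytokine or growth hormone receptor activates JAK kinases, these phosphorylate STAT transcription factors, and STATs switch on several SOCS genes, whose products bind the receptor or the kinase through an SH2 domain and recruit a ubiquitin ligase through the SOCS box. BMP ligands signal instead through receptor serine kinases and SMAD proteins, and MIB1 is a ubiquitin ligase best known for its part in Notch ligand endocytosis.

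Total counts per library ranged from 19124010 to 29498000. A level of 3 counts, taken as the floor, corresponded to 0.103 to 0.157 CPM, the unit of counts scaled to library size. MIB1 itself had between 144 and 176 CPM in the WT libraries and between 31.0 and 34.4 CPM in the KO libraries, so every library fell on the side of its label. Of 5 epithelial markers, 4 had a mean of at least 1 RPKM, while KRT19 had no more than 3 counts in any library. None of 6 lung lineage markers reached 1 RPKM, and NKX2-1, SFTPB, SFTPC and FOXA2 had no more than 3 counts in any library, so lung identity rests on the label of the line. No blood cell marker of 5 reached 1 RPKM, and of 5 fibroblast and endothelial markers only COL1A1 did. The Spearman correlation of a library's deviations from its group with the GC content of genes ranged from -0.60 to 0.59, both in KO BMP-off libraries.

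SOCS2, an inhibitor of growth hormone receptor signaling, lies on the plus strand of chromosome 12 from 93569814 to 93583487 (GRCh38). In the 3 WT BMP-off libraries it had 20.6, 20.5 and 19.1 CPM, and in the 3 WT BMP-on libraries 40.0, 38.3 and 38.6 CPM. The KO BMP-off libraries had 20.8, 20.3 and 20.7 CPM, and the KO BMP-on libraries 71.5, 74.1 and 74.9 CPM. Every BMP-on library lay above every BMP-off library, every KO BMP-on library lay above every WT BMP-on library, and the WT and KO BMP-off groups overlapped. The ratio of mean CPM between BMP-on and BMP-off was 1.94 in WT and 3.57 in KO cells, and between KO and WT it was 1.89 with BMP-on and 1.03 with BMP-off. On the log2 scale of the fit, the BMP response of SOCS2 was 0.96 ± 0.06 in WT and 1.83 ± 0.05 in KO cells (SE), and the difference between these responses was 0.88 ± 0.08. Ordered by fitted log2 fold change among 17188 genes tested, SOCS2 stood at position 125 in the WT response, 41 in the KO response, 79 when KO and WT were compared with BMP-on, 6268 when they were compared with BMP-off and 239 for the interaction. In bulk RNA, a change in the number of expressing cells and a change in RNA per cell cannot be told apart.

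SOCS2-AS1 is a noncoding gene on the opposite strand whose exons share 277 bases with those of SOCS2, or 4.28% of the exonic bases of SOCS2. It was taken up after SOCS2 had been chosen, as its neighbour, and its values are likewise a description. It had 1.03 ± 0.178 CPM in WT BMP-off, 2.03 ± 0.244 in WT BMP-on, 1.11 ± 0.227 in KO BMP-off and 4.74 ± 0.479 CPM in KO BMP-on libraries (SD, n = 3). The order of the groups was that of SOCS2, and the KO BMP-on libraries again did not overlap any other group. Its counts were between 4.25% and 7.12% of those of SOCS2 in each library. The sources used here do not say whether strand was used in counting, so reads in the shared bases cannot be assigned to either gene.

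**Figure D1:**
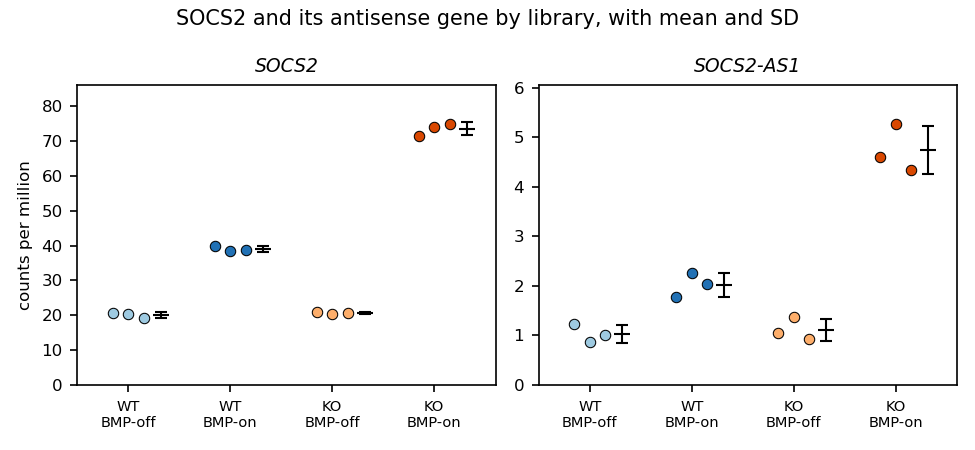
CPM of SOCS2 (left) and its antisense gene SOCS2-AS1 (right) by group, with a point for each library and the mean and SD of 3 libraries in black. For SOCS2 the KO BMP-on libraries lie between 71.5 and 74.9 CPM and the WT BMP-on libraries between 38.3 and 40.0 CPM, and SOCS2-AS1 has the same order of groups.

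To ask whether the BMP response was shared by the family in WT cells, the 7 paralogs were examined next. No paralog passed an adjusted p of 0.05 in the WT response, against 3.92% of all genes tested. Among the 6 paralogs tested, edgeR gave 0 at an unadjusted p under 0.05, and DESeq2 and limma-voom also called 0. The median log2 fold change of the 6 was 0.04, beside 0.00164 over all genes. Without CISH, whose counts were low, the 95% intervals of the other 5 lay between -0.17 and 0.21, and that of CISH reached from -0.37 to 1.00. Of the 6 paralogs, SOCS3 alone had BMP-on libraries that did not overlap the BMP-off libraries, where 23.9% of all genes did not overlap.

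In KO cells, SOCS3 and CISH were called higher with BMP-on, which is 2 of 6 paralogs tested beside 22% of all genes, so the count was not far from the background. At an unadjusted p under 0.05 the count was 3, beside 6099 of 17188 genes tested. In the same comparison limma-voom called 2, and DESeq2 called 1, SOCS3, and gave CISH no adjusted p. The median log2 fold change of the 6 was -0.03, beside 0.01 over all genes. The groups did not overlap for SOCS3, CISH and SOCS6, or 3 of 6 beside 35.8% of all genes. At the thresholds of the study, which also require a log2 fold change of 1 or more in size, CISH was the 1 paralog called, beside 1.66% of all genes. On the log2(RPKM + 1) and log2(RPKM + 0.1) scales its change was 0.24 and 0.87, under that size.

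SOCS3, which binds gp130-type receptors and inhibits JAK kinases directly, is a minus-strand gene at positions 78356778 to 78360077 of chromosome 17. It had 36.7, 36.4 and 37.2 CPM in WT BMP-off and 38.9, 40.3 and 37.6 CPM in WT BMP-on libraries. The KO BMP-off libraries had 39.4, 33.9 and 38.0 CPM, and the KO BMP-on libraries 43.2, 43.6 and 41.0 CPM. The BMP-on libraries were above the BMP-off libraries in both genotypes and the KO BMP-on libraries were above the WT BMP-on libraries, by small margins. The log2 fold change in KO cells was 0.20 ± 0.06 (SE, edgeR, adjusted p = 0.0294), and in WT cells it was 0.08 ± 0.06 (adjusted p = 0.585). The call in KO cells was lost and its direction turned to -0.07 when the GC trend of each library was corrected (adjusted p = 0.460, range over the alternatives 0.0247 to 0.460). SOCS3 has a GC content of 60.0%, and its lowest value was in KO BMP-off replicate 2, the library with the lowest GC correlation, -0.60. The call was also lost with no filter on low counts, with only the groups compared and on the RPKM scales, as well as without KO BMP-off replicate 2 (0.13), without KO BMP-on replicate 1 (0.18) and without KO BMP-on replicate 2 (0.18).

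CISH, a family member that STAT5 is known to induce, is a minus-strand gene at positions 50606489 to 50611774 of chromosome 3. It had 18, 9 and 10 counts in WT BMP-off and 15, 23 and 13 counts in WT BMP-on libraries. The KO BMP-off libraries had 7, 6 and 11 counts, and the KO BMP-on libraries 16, 15 and 23 counts. At least 10 counts were reached in 9 of the 12 libraries. In KO cells the groups did not overlap, with 0.316 ± 0.127 CPM in BMP-off and 0.763 ± 0.141 CPM in BMP-on libraries (SD, n = 3), while in WT cells they overlapped, with 0.498 ± 0.133 and 0.629 ± 0.160 CPM. The log2 fold change in KO cells was 1.28 ± 0.35 (SE, edgeR, adjusted p = 0.0157) with a 95% interval from 0.54 to 2.02, and in WT cells it was 0.31 ± 0.32 (adjusted p = 0.714). The KO call was lost without KO BMP-off replicate 1 (1.10), without KO BMP-off replicate 2 (1.13) and without KO BMP-on replicate 3 (1.13), with adjusted p from 0.00590 to 0.0741 over the alternatives. The ratio of mean CPM was 2.42 in KO and 1.26 in WT cells. The exons of CISH share 218 bases with MAPKAPK3 on the opposite strand, a gene with 1341 to 2160 counts per library whose log2 fold change in KO cells was 0.56 ± 0.06. The part of MAPKAPK3 reads in the counts of CISH was not tested.

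Promoter windows of 300 bases, from 250 bases before to 50 after the start, were read from a RefSeq table (GRCh38.p14) for CISH, SOCS1, SOCS3, SOCS4 and SOCS6, and not for SOCS2, SOCS5 and SOCS7. The start is that of the RefSeq table, and the 2 windows of SOCS3 are set on starts 848 bases upstream and 410 bases downstream of the SOCS3 start given above, so neither describes the bases at that start. The 250 bases before the start of CISH are shown because they held 4 copies of TTCNNNGAA, the element that STAT dimers are known to bind, which is written in capitals and reads alike on both strands. They span chr3:50611775-50612024 and are written 5′ to 3′ on the minus strand, the strand of the gene.
CISH promoter: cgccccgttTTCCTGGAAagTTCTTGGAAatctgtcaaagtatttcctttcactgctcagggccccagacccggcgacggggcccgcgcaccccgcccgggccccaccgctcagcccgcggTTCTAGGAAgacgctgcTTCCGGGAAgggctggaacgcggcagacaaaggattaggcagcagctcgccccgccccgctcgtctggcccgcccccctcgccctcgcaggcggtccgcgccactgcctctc
The copies began 241, 230, 129 and 112 bases before the start. Of 35116 windows in the table, 7.66% held the element at least 1 time and 0.0199% held at least 4 copies, and none of the windows read for the other members held it. GGCGCC, a sequence that SMAD1 and SMAD5 can bind, was in the windows of SOCS1, SOCS4 and SOCS6 and in 19.2% of all windows. Of the 2 windows of SOCS3, only that on the start 848 bases upstream held it. CAGACA, which contains the short SMAD box, was in the window of CISH and in 16.9% of all. All motifs were searched on both strands. GTCTAGAC was in none of these members' windows and in 0.202% of all. These matches describe letters and not binding.

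The other paralogs with ample counts stayed close to their starting values. SOCS6, an adaptor that binds the KIT receptor, had 37.0, 36.4 and 34.0 CPM in KO BMP-off and 32.6, 31.5 and 32.4 CPM in KO BMP-on libraries. The BMP-on libraries lay below the BMP-off libraries, and the log2 fold change was -0.15 ± 0.06 (SE, edgeR, adjusted p = 0.0938), with a 95% interval from -0.29 to -0.02. It passed the threshold without KO BMP-off replicate 3, at -0.20, and with the GC correction it was -0.06. In WT cells the 2 groups of SOCS6 overlapped, at 36.2 ± 1.77 CPM with BMP-off and 35.2 ± 2.29 CPM with BMP-on (SD, n = 3).

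SOCS4 and SOCS5, which have long N-terminal regions and are known to act on the EGF receptor, overlapped between groups in all 4 pairs. SOCS4 ranged from 65.3 to 76.0 CPM over the 12 libraries and SOCS5 from 24.6 to 29.3 CPM. SOCS7, which binds adaptor proteins such as NCK, ranged from 24.6 to 28.4 CPM. Its KO BMP-off libraries, at 27.6, 26.8 and 28.4 CPM, lay above the WT BMP-off libraries, at 26.3, 24.6 and 25.7 CPM, by a log2 difference of 0.11 ± 0.06 (SE, edgeR, adjusted p = 0.553). The BMP response in KO cells was 0.00 for SOCS4, -0.08 for SOCS5 and -0.06 for SOCS7 on the log2 scale, with adjusted p of 0.971, 0.423 and 0.517.

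SOCS1, a direct inhibitor of JAK kinases that interferons induce, had 34 counts over the 12 libraries. It had 0, 2 and 2 counts in WT BMP-off, 2, 11 and 4 in WT BMP-on, 2, 2 and 2 in KO BMP-off and 3, 2 and 2 in KO BMP-on libraries. The groups overlapped in all 4 pairs, and 11 of the counts came from WT BMP-on replicate 2. A difference was not detectable at this depth.

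**Figure D2:**
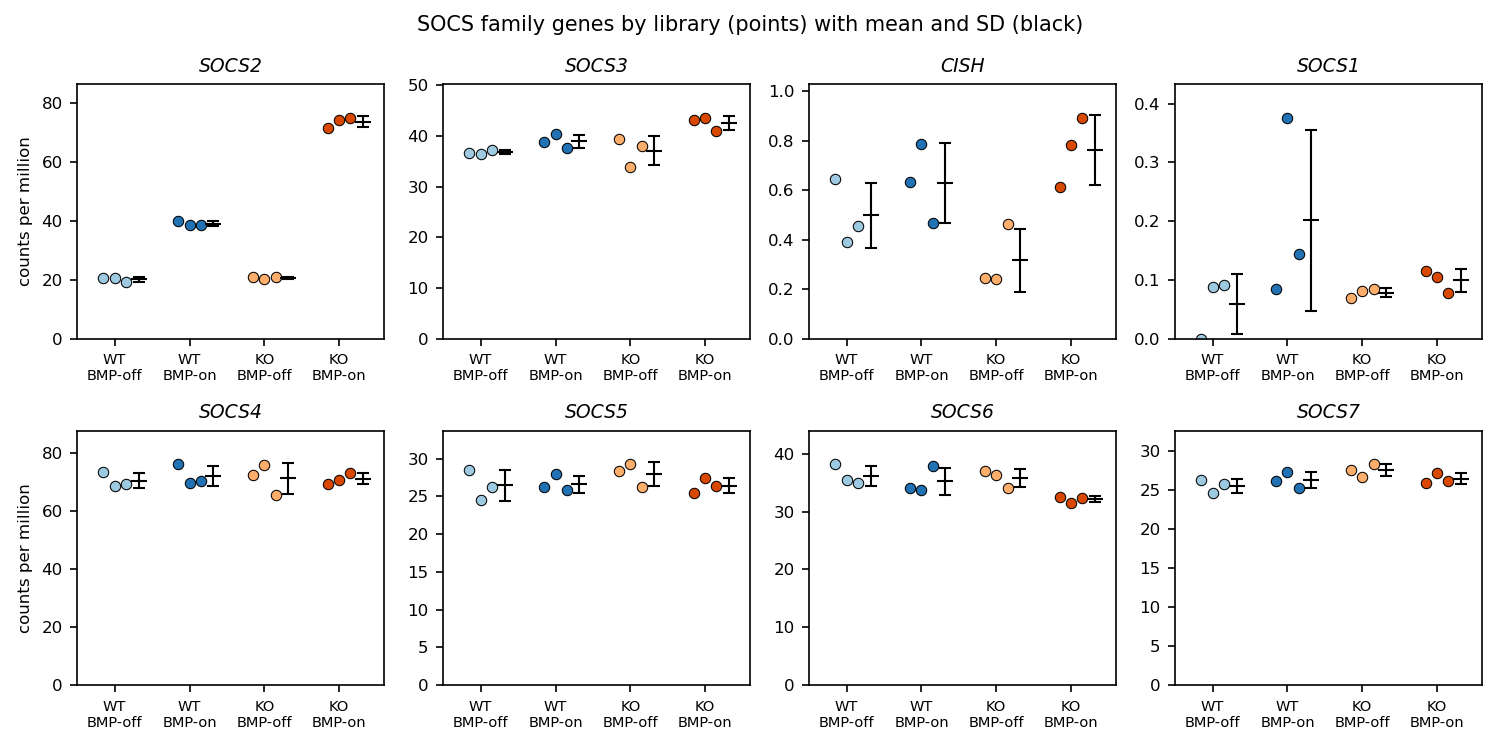
CPM of the 8 SOCS family genes by group, with a point for each library and the mean and SD of 3 libraries in black, each panel on its own axis from 0. SOCS2 rises in steps to 71.5 to 74.9 CPM in KO BMP-on libraries, whereas SOCS4, SOCS5 and SOCS7 stay level and CISH and SOCS1 remain below 1 CPM.

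With BMP-on, KO cells were compared with WT cells to see whether MIB1 loss moved the paralogs. No paralog of the 6 tested was called, beside 3.67% of all genes, and edgeR gave 0 at an unadjusted p under 0.05, with 0 called by DESeq2 or limma-voom. Log2 differences ranged from -0.13 for SOCS6 to 0.27 for CISH, and without CISH the 95% intervals lay between -0.26 and 0.26. The groups did not overlap for 2 of the 6, SOCS3 (0.13 ± 0.06, adjusted p = 0.367) and SOCS6 (-0.13 ± 0.06, adjusted p = 0.384), beside 23.6% of all genes.

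With BMP-off, 0 of the 6 paralogs differed between KO and WT cells by edgeR, DESeq2 or limma-voom, beside 0.0407% of all genes, and 0 had an unadjusted p under 0.05. Differences ranged from -0.70 for CISH, with a 95% interval from -1.50 to 0.11, to 0.11 for SOCS7. SOCS7 was the 1 paralog whose groups did not overlap, beside 11.7% of all genes.

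The difference between the BMP responses of KO and WT cells was tested as an interaction, which was the measure closest to the choice of SOCS2. Again 0 of the 6 paralogs was called, beside 0.0931% of all genes, with 0 at an unadjusted p under 0.05 by edgeR and 0 called by DESeq2 or limma-voom. Estimates for SOCS3, SOCS4, SOCS5, SOCS6 and SOCS7 lay between -0.11 and 0.12, with 95% intervals between -0.31 and 0.30. The estimate for CISH was 0.96 ± 0.48 (SE, edgeR, adjusted p = 0.488), with a 95% interval from -0.06 to 1.99.

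**Figure D3:**
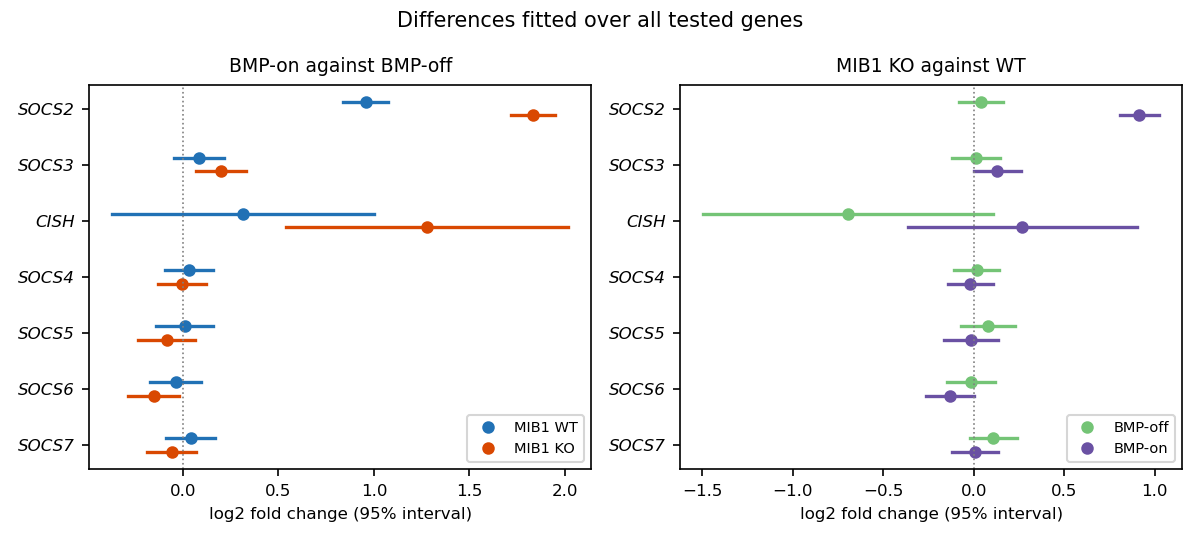
Fitted log2 fold changes with 95% intervals for the 7 SOCS family genes that passed the filter, for BMP-on against BMP-off in each genotype (left) and for MIB1 KO against WT in each BMP state (right). SOCS2 is at 0.96 and 1.83 in the left panel, SOCS3 to SOCS7 lie near 0, and the CISH intervals are the widest.

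Levels per length were compared between the genes with the authors' RPKM values. SOCS3 had the highest level in every group, with means from 14.1 to 16.0 RPKM. SOCS4 followed at means of 10.5 to 10.7 RPKM, except in KO BMP-on libraries. SOCS2 was 6th in WT BMP-off libraries at 3.35 ± 0.141 RPKM, where it overlapped SOCS7, and 6th in KO BMP-off libraries at 3.47 ± 0.0320 RPKM (SD, n = 3). It was 3rd in WT BMP-on libraries at 6.43 ± 0.163 RPKM, where it overlapped SOCS6, and 2nd in KO BMP-on libraries at 12.1 ± 0.329 RPKM, above SOCS4 with no overlap. CISH and SOCS1 had no more than 0.413 and 0.318 RPKM in any library, and their ranges overlapped in WT BMP-on libraries. SOCS6 and SOCS5 were neighbours in each group, between 5.39 and 6.42 RPKM, and their ranges overlapped in both KO groups.

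**Figure D4:**
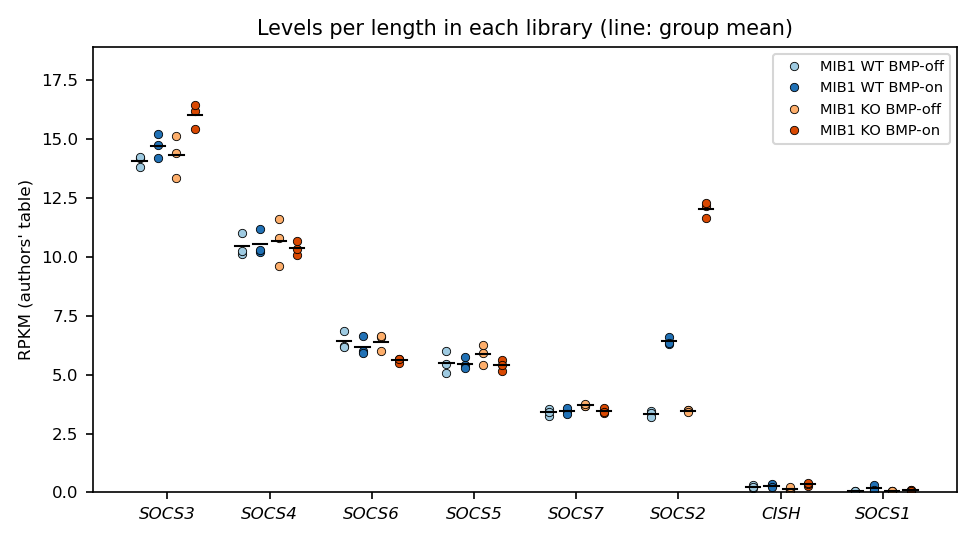
RPKM values of the 8 SOCS family genes, with a point for each library and a line at each group mean. SOCS2 moves from about the level of SOCS7 in BMP-off libraries to 12.1 RPKM in KO BMP-on libraries, between SOCS3 and SOCS4.

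Across the 12 libraries, the genes most like SOCS2 by Pearson's r of log2 CPM, among 12836 genes with a mean of at least 50 counts, were BAMBI (0.996), CDKN1A (0.993), CYP24A1 (0.992), HEY1 (0.990) and EML1 (0.990). BAMBI encodes a BMP pseudoreceptor, CDKN1A a CDK inhibitor, CYP24A1 a vitamin D hydroxylase and HEY1 a Notch and BMP target repressor. BAMBI had mean levels of 13.8, 35.3, 16.2 and 80.7 CPM in WT BMP-off, WT BMP-on, KO BMP-off and KO BMP-on libraries. SOCS2-AS1 had an r of 0.974 and was 42nd. Of the paralogs, r was 0.83 for SOCS3, 0.72 for CISH, 0.32 for SOCS1, 0.08 for SOCS4, -0.03 for SOCS7, -0.24 for SOCS5 and -0.73 for SOCS6. SOCS3 was 618th, while CISH and SOCS1 had means below 50 counts and were not ranked. The points share the 4 groups, so r follows the group differences.

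The genes around the family in the cytokine pathway were taken from lists compiled with general knowledge. Of 31 cytokine ligands, 10 were tested. IL6, the ligand of the IL6R and gp130 complex, fell with BMP-on, from 15.1 ± 1.86 to 6.21 ± 0.538 CPM in WT cells, and in KO cells from 13.8 ± 0.898 to 4.27 ± 0.369 CPM (SD, n = 3). Its log2 fold changes were -1.28 ± 0.11 and -1.70 ± 0.12 (SE, edgeR, adjusted p = 2.25e-06 and 6.63e-08). With BMP-on IL6 was lower in KO than in WT cells by -0.55 ± 0.12 (adjusted p = 0.0188), a call lost without WT BMP-on replicate 3, KO BMP-on replicate 1 or KO BMP-on replicate 3, at -0.57 to -0.48.

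Of 41 cytokine receptor chains, 23 were tested. In the KO response 7 were higher and 7 lower, with a median of 0.02, beside 22% of all genes called, and in the WT response 2 were higher and 1 lower, beside 3.92% of all genes. With BMP-on, 2 were higher in KO than in WT cells, IL21R and IL4R, beside 3.67% of all genes. IL21R, named after its values were seen, had a mean of 19.5 counts and a difference of 1.33 ± 0.25 (SE, edgeR, adjusted p = 0.00466), a call lost on the log2(RPKM + 0.1) scale. IL4R had a difference of 0.27 ± 0.07 (adjusted p = 0.0429), a call that the replicate block and the RPKM scales ended. The IL4R call was also ended by leaving out any of 8 libraries, at 0.23 to 0.28. In WT libraries these were BMP-off replicates 2 and 3 and all BMP-on replicates, and in KO libraries BMP-off replicate 1 and BMP-on replicates 1 and 2. IL6R fell from 56.9 to 34.6 mean CPM in KO cells (-0.72 ± 0.07, adjusted p = 3.13e-06), and CSF2RA, a GM-CSF receptor chain, from 4.63 to 3.05 CPM (-0.62 ± 0.14, adjusted p = 0.00430). IL4R, the interleukin-4 receptor, rose from 92.9 to 139 CPM (0.58 ± 0.07, adjusted p = 2.02e-05). These 3 calls held under all 24 alternatives. The call of IL11RA (0.69 ± 0.22, adjusted p = 0.0412) was lost with the replicate block and without any of 7 libraries, namely WT BMP-on replicates 2 and 3, KO BMP-off replicates 1 and 2 and the KO BMP-on libraries, at 0.56 to 0.75. In WT cells IL4R rose by 0.31 ± 0.07 (adjusted p = 0.0166), which was lost without WT BMP-off replicate 2 or WT BMP-on replicate 1 or 2, at 0.30 to 0.31. IL6R fell by 0.32 on the log2 scale there (adjusted p = 0.0184), which was lost without WT BMP-off replicate 1 or 2 or any WT BMP-on library, at -0.33 to -0.22.

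Of 11 JAKs and STATs, 10 were tested, and in the KO response 4 were higher, beside 22% of all genes called in either direction, with a median of 0.15 over the list, and with the GC correction 2 were higher. JAK3 rose from 1.82 to 3.21 mean CPM (0.82 ± 0.19, SE, edgeR, adjusted p = 0.00525) and STAT2 from 50.3 to 58.6 CPM (0.22 ± 0.05, adjusted p = 0.00571), and both calls held under all 24 alternatives. STAT5A (0.30) and STAT6 (0.20) were no longer called with the GC correction, at 0.10 and 0.05. Single libraries also ended these calls, for STAT5A KO BMP-off replicate 1 and KO BMP-on replicates 1 and 2 (0.24 to 0.27), and for STAT6 KO BMP-off replicates 1 and 2 and any KO BMP-on library (0.16 to 0.21). In the WT response edgeR, DESeq2 and limma-voom called 0. By edgeR 1 had an unadjusted p under 0.05, beside 2637 of 17188 genes tested. Levels per length of the abundant members JAK1 and STAT3 were 58.1 and 55.7 mean RPKM.

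Of 31 genes commonly listed as STAT targets, 21 were tested, with 7 higher and 4 lower in the KO response, beside 22% of all genes called, and a median of -0.03, while the GC correction gave 5 higher and 7 lower. JUNB (46.3 to 87.2 mean CPM, 0.91 ± 0.19), FOS (15.5 to 20.9, 0.43 ± 0.09) and MYC (23.0 to 30.4, 0.40 ± 0.07) rose in KO cells with adjusted p of 0.00743, 0.00232 and 0.000970 (SE, edgeR), under all 24 alternatives as well, although JUNB was at 0.52 with the GC correction. These are growth response transcription factors that many pathways induce. TIMP1 (0.33) was no longer called with the GC correction (0.14) or without KO BMP-on replicate 1 or 2, at 0.28 to 0.32. MYC was also higher in KO than WT cells with BMP-on, by 0.31 ± 0.07 (adjusted p = 0.0228), which was lost without WT BMP-on replicate 2 or 3 or KO BMP-on replicate 2 or 3, at 0.27 to 0.33. In the WT response the 1 gene called was CCND1, which encodes cyclin D1, higher by 0.26 ± 0.05 (adjusted p = 0.00929) and named after its values were seen. That call was lost without WT BMP-off replicate 2 or 3 or WT BMP-on replicate 1.

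With BMP-off, 0 genes of any list differed between KO and WT cells by edgeR, DESeq2 or limma-voom. There, 0 to 3 genes per list had an unadjusted p under 0.05, beside 1757 of 17188 genes tested. For the interaction edgeR and limma-voom also called 0, and DESeq2 called 1, the SOCS2 neighbour CRADD. At an unadjusted p under 0.05 there were 0 to 9 genes per list, beside 1819 of 17188 genes tested. The 9 were among the 23 cytokine receptor chains tested. With the GC correction, 1 receptor, 1 STAT target and 1 neighbour of SOCS2 were called for the interaction.

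The SOCS box recruits Elongins and Cullin-5, and all 24 genes of this machinery and of other SOCS box proteins were tested. In the KO response 5 were higher and 0 lower, by edgeR, DESeq2 or the fit with the replicate block, which is near the 22% of all genes called. With the GC correction the counts were 5 higher and 2 lower, and 3 of the first 5 genes, RAB40B, SPSB2 and ELOB, were among those higher. RAB40B (1.74 to 3.32 mean CPM, 0.91 ± 0.18, adjusted p = 0.00203) and SPSB2 (4.76 to 7.42, 0.65 ± 0.15, adjusted p = 0.00530), SOCS box proteins of other families, rose under all 24 alternatives, although SPSB2 was at 0.34 with the GC correction. ELOB, the Elongin B subunit, was at 0.56 ± 0.16 (adjusted p = 0.0256) and was not called without KO BMP-off replicate 1 or KO BMP-on replicate 1 or 3, at 0.54 to 0.59. RAB40C (0.57) and ASB6 (0.34), the latter named after its values were seen, lost their calls with the GC correction, at 0.15 and 0.13, and RAB40C also without KO BMP-on replicate 1, at 0.47, and ASB6 without KO BMP-on replicate 2. Of 12 other inhibitors of cytokine signaling tested among 14, PIAS3 was the 1 called, at 0.19 ± 0.06 (adjusted p = 0.0367), and 14 of 24 alternatives ended that call, 7 of them by leaving out 1 library (WT BMP-off replicate 2, WT BMP-on replicate 3, KO BMP-off replicate 1 or 2 or any KO BMP-on library), at 0.15 to 0.20.

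Neighbours of SOCS2 were described for the 3 nearest annotated protein-coding genes on each side. CRADD, a death domain adaptor that begins 93888 bases after the end of SOCS2, had 17.4 ± 1.43, 19.3 ± 0.651, 15.5 ± 0.369 and 24.1 ± 0.898 CPM in WT BMP-off, WT BMP-on, KO BMP-off and KO BMP-on libraries (SD, n = 3). The KO BMP-on libraries lay above those of every other group. Its log2 fold change was 0.15 ± 0.07 in the WT response (adjusted p = 0.369), 0.64 ± 0.07 in the KO response (adjusted p = 1.19e-05) and 0.33 ± 0.07 between KO and WT cells with BMP-on (adjusted p = 0.0152). The last call was lost without WT BMP-on replicate 2 or 3 or KO BMP-on replicate 1 or 3, at 0.30 to 0.32. The interaction was 0.49 ± 0.10 (adjusted p = 0.0722), which DESeq2 and the GC correction called. PLXNC1, a semaphorin receptor, was lower in the KO response, by -0.58 ± 0.11 (adjusted p = 0.00158), under all 24 alternatives, and MRPL42, UBE2N, NUDT4 and CEP83 were not called in any comparison.

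**Figure D5:**
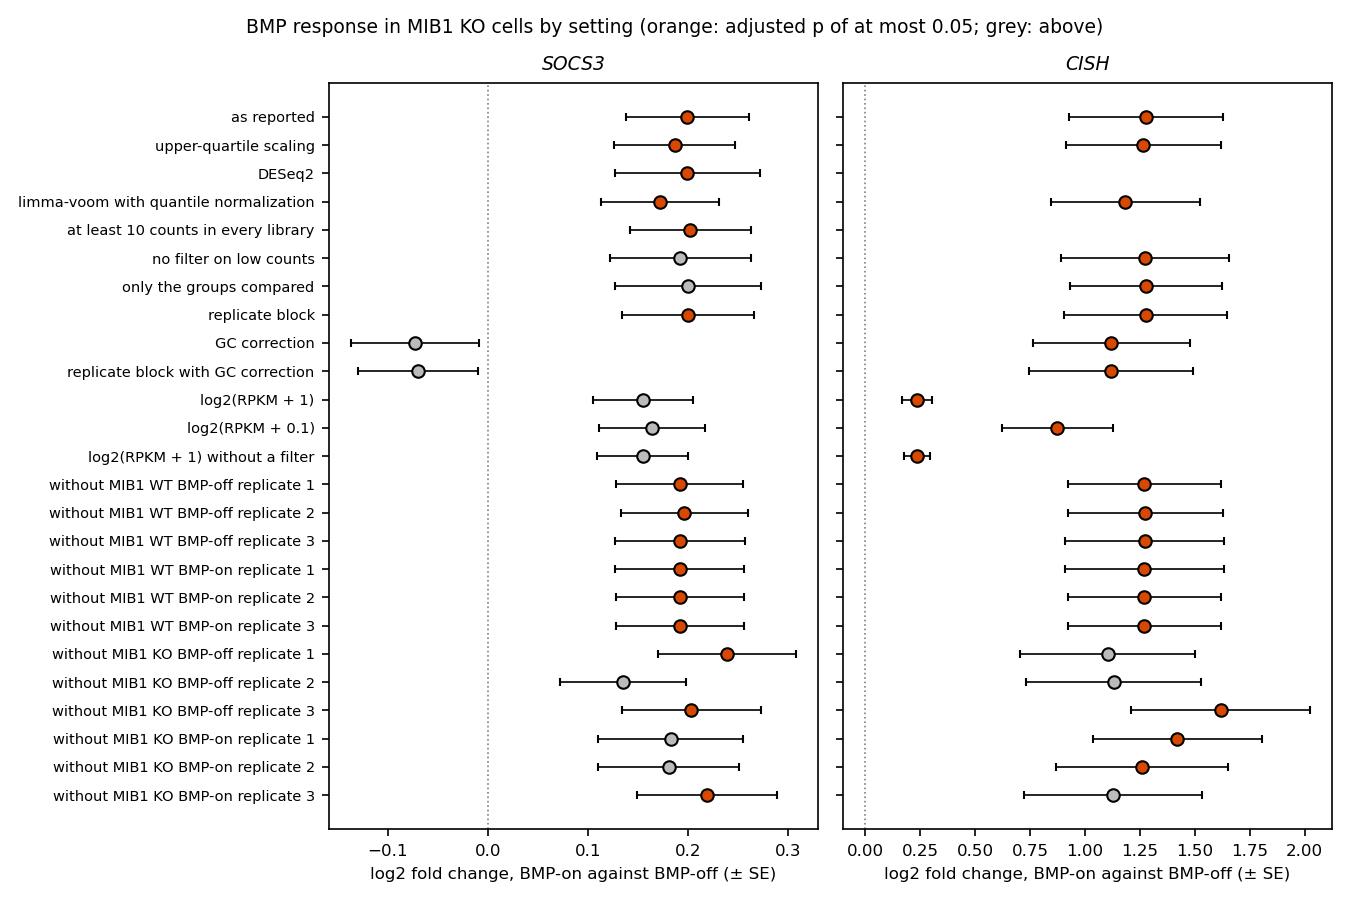
Log2 fold change (± SE) of SOCS3 and CISH in the BMP response of MIB1 KO cells as reported and under each alternative, with orange points for an adjusted p of at most 0.05 and grey points above it. SOCS3 moves to -0.07 with the GC correction, and CISH, which had no adjusted p under DESeq2 and was not tested with at least 10 counts in every library, loses its call without KO BMP-off replicate 1 or 2 or KO BMP-on replicate 3.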

How the data were processed

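Gene expression was measured by RNA-seq in 12 libraries, 3 for each of 4 groups taken from the labels. After removing ribosomal reads, the authors used GSNAP for alignment (GRCh38) and HTSeqGenie for counting over exons. The deposited counts are whole numbers without normalization for 58302 Ensembl identifiers, of which 57532 had a GENCODE v44 symbol, while the methods name RefSeq models. The deposited RPKM values were normalized by the authors and served for levels between genes and for alternatives. Whether the stranded or the low-input kit made these libraries is not given in the sources used here.

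Counts were fitted with R 4.3.3 and edgeR 4.0.16 (TMM scaling, default filter on low counts, 17188 genes, robust quasi-likelihood, all 12 libraries), and adjusted p is by Benjamini-Hochberg over all genes of a comparison. Calls required an adjusted p no higher than 0.05. The common dispersion was 0.00434. Replicates of a group differed by 3.08 to 17.9 times counting variance, which is more than counting alone gives. That spread does not tell separate cultures from separate libraries of the same RNA. CPM uses TMM library sizes. The procedure was also run on simulated counts without a GC trend, so that run does not cover the GC effects described above.

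Alternatives were upper-quartile scaling, DESeq2 1.42.0, quantile-normalized limma-voom (limma 3.58.1), a minimum of 10 counts in every library, no filter at all, only the groups compared, a replicate block, a GC correction (loess, span 0.4, by GC percent of each gene's longest transcript), both together, log2(RPKM + 1) and log2(RPKM + 0.1), and each library left out in turn. No adjusted p from DESeq2 was available for CISH. Pathway genes named were, per list, up to 4 called in the KO response or in KO against WT with BMP-on, by absolute log2 fold change in the KO response, with a mean of at least 50 counts, and the genes most like SOCS2 were the 5 with the highest r. The members, lists and rules were chosen with earlier results of these data known. Reads of the SOCS2, SOCS5 and SOCS6 pseudogenes could be shared with their parent genes, and none of these pseudogenes had more than 10 counts in a library. Results for some genes of the pathway lists are not reported here.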

Additional observations from a re-analysis of the deposited data

How the results depend on the processing

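The count of paralogs called was 2 in the KO response and 0 in the other 4 comparisons. The 0 counts kept their value under every alternative run. In the KO response the count was 1 under DESeq2, where CISH had no adjusted p, with at least 10 counts in every library, where CISH was not tested, and with no filter on low counts, only the groups compared, GC correction, replicate block with GC correction, log2(RPKM + 1), log2(RPKM + 0.1) and log2(RPKM + 1) without a filter, where SOCS3 was not called. With each library left out in turn it ranged from 0, without KO BMP-off replicate 2, to 3, without KO BMP-off replicate 3. The log2 fold change of SOCS3 in KO cells reversed to -0.0727 with the GC correction and to -0.0702 with the replicate block and GC correction. The response of SOCS2 in KO cells stayed between 1.55 and 1.85, its low end from log2(RPKM + 1), which understates changes of low genes.

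Whether replicate numbers pair libraries was not settled. Of 18 same-numbered pairs, 2 had a correlation of deviations above 0.1, but differently numbered pairs were not compared. With the replicate block the count of paralogs in the KO response stayed at 2, and all genes called in the KO response went from 3777 to 3427. Of 1219 values of the 51 pathway results called, taken over the alternatives, 1013 stayed past the threshold and 206 did not. Of these, 2 changed direction, both for CEBPB in the KO response, named after its values were seen, which went from 0.23 to -0.24 with the GC correction. On the log2(RPKM + 1) scale, which understates changes of low genes, JAK3 was at 0.24, RAB40B at 0.32, CSF2RA at -0.37 and PLXNC1 at -0.26 in the KO response. Comparing only the groups concerned also ended the calls of STAT5A, STAT6, RAB40C, ASB6, ELOB, PIAS3 and TIMP1 in the KO response. The RPKM scales ended those of IL4R, IL6R and CCND1 in the WT response and of IL11RA, STAT5A, STAT6 and PIAS3 in the KO response. With log2(RPKM + 1) without a filter, RAB40C, ASB6, ELOB and TIMP1 were not called in the KO response either. The same setting ended the calls of IL6 and MYC between KO and WT cells with BMP-on. The interaction was not run with only the groups compared, since it needs all groups. Depth limits CISH and SOCS1, with 166 and 34 counts in all.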
